A study of Mus musculus with 2 samples.

Results

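Gpha2, Krt15, Ifitm3, Cd63 and Lrig1 are 5 genes used as markers of the limbus, the rim of the cornea. They were taken by symbol from the 27998 features of both count matrices, and each matched 1 row. The list was drawn up with earlier results of these data known, so it is not independent of them. Their levels were followed through the layers of the epithelium and through the stroma of the mouse ocular surface. One library came from a wild-type mouse and the other from a Becn1 heterozygote, labelled Beclin1 +/-. Becn1 encodes beclin 1, which helps to start autophagosome formation. What the mutant allele lacks is not stated in the labels. Both animals were female C57BL/6 littermates of 28 days, and each genotype was 1 animal and 1 library. Lens, retina, iris and trabecular meshwork had been taken away and most of the conjunctiva had been cut off before digestion with collagenase A and trypsin, so conjunctival cells are those that the dissection left. Pairs of values below give the wild-type library first and the heterozygote second. With 1 library per genotype, genotype, animal and library cannot be told apart, no difference has a replicate check, no p-value is given, and all intervals are exact 95% intervals that cover counting error only.

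The corneal epithelium is renewed from stem cells in the basal layer of the limbus, whose progeny move onto the cornea, turn on the corneal keratin Krt12 and rise through the wing cell layers to the surface. Gpha2 encodes the alpha subunit of thyrostimulin, a glycoprotein hormone whose beta subunit is Gphb5 and whose receptor is Tshr, the thyrotropin receptor. Krt15 is a type I keratin of basal cells in stratified epithelia. Ifitm3 is an interferon-induced membrane protein that blocks entry of enveloped viruses, Cd63 is a tetraspanin of late endosomes and exosomes, and Lrig1 is a transmembrane protein that lowers ErbB receptor signalling and marks stem cells of the epidermis.

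In the mm10 build, by GENCODE M21, Gpha2 lies on the plus strand of chromosome 19 from 6226380 to 6227768, and Krt15 on the minus strand of chromosome 11 from 100131758 to 100135928. Ifitm3 lies on the minus strand of chromosome 7 from 141009586 to 141010770. Cd63 is on the plus strand of chromosome 10 from 128900989 to 128912822, and Lrig1 on the minus strand of chromosome 6 from 94604529 to 94700158. Gpha2 overlaps Ppp2r5b and Lrig1 overlaps Slc25a26, both on the opposite strand. Whether counting used the strand is not given in the sources used here, so reads from the overlaps could not be told apart.

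Promoters of 4 of the 5 genes were found in the RefSeq table of build GRCm38.p6, all but that of Krt15, and 3 are shown because their genes shared a rise toward the Krt12-low end of the basal layer, described below. Windows run 5′ to 3′ on the gene's strand up to its RefSeq start: Gpha2 at chr19:6226151-6226400, plus strand, Ifitm3 at chr7:141010745-141010994, minus strand, and Cd63 at chr10:128909095-128909344, plus strand. The last 21 bases of the Gpha2 window and the last 26 of the Ifitm3 window are exonic by GENCODE, while the Cd63 window lies inside the GENCODE gene with no exonic base. A further 30 bases after the Ifitm3 start, chr7:141010715-141010744, are exonic. Capitals mark matches to the interferon-stimulated response element core (GAAA, any 2 bases, GAAA), the GC box GGGCGG and the AP-1-like string TGANTCA on either strand. N takes any base, and the match in Ifitm3 has T there.
Gpha2 promoter: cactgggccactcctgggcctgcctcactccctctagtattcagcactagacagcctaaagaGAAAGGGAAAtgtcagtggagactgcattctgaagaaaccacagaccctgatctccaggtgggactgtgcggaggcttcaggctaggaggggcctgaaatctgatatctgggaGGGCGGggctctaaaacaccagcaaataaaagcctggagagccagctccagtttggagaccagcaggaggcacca
Ifitm3 promoter: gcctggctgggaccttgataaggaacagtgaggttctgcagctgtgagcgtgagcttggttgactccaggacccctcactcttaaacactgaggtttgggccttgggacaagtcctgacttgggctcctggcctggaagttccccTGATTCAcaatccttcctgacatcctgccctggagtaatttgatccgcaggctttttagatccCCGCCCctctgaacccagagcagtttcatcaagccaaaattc
Ifitm3 after start: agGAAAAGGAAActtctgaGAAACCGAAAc
Cd63 promoter: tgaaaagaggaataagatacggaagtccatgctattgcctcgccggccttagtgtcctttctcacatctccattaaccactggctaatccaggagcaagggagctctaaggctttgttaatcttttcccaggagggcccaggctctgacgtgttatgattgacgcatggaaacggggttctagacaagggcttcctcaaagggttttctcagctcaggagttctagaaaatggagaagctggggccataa
The motifs, and the TATA motif TATAAA, were sought on both strands of 32851 windows that reach from 250 bases before to 50 bases after a start. The response element core was in 3.44% of all windows and in those of Gpha2 and Ifitm3, where the latter had 2 matches. The GC box was in 35.7% of windows and in those of Gpha2, Ifitm3 and Lrig1. The AP-1-like string was in 7.81% and in that of Ifitm3, and the TATA motif in 13.6% and in none of the 4. In the Cd63 window none of these letter strings was found.

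After doublet removal 2462 wild-type and 4942 heterozygote cells remained, with a median of 16967 and 11571 unique molecular identifiers (UMIs) per deposited barcode, and 15 barcode sequences occurred in both libraries. The 22 clusters, built without the 5 genes, were placed by levels of other genes, in UMIs of a gene per 1000000 UMIs of the cells (CPM). Basal cells had Krt14 of at least 2000 CPM and were split at 7891 CPM of Krt12, 50% of the median over basal clusters. This gave 208 wild-type and 352 heterozygote Krt12-low basal cells, 852 and 1465 Krt12-high basal cells, 646 and 1267 wing cells, 95 and 238 surface cells with Lce3a, 68 and 170 conjunctival cells with Krt4 and Krt13, and 560 and 1347 stromal cells with Dcn. Just inside and outside the Krt14 threshold lay cluster 17 at 2821 CPM and cluster 8, a wing cluster, at 1931 CPM. Cluster 15, at 1619 CPM of Krt14, was also placed as wing. It had 99.2 CPM of Trp63, above every basal cluster (54.2 to 92.0 CPM), so its place rests on the Krt14 threshold and is uncertain. The Krt12-low clusters had 6162 and 1717 CPM of Krt12, against 14214 CPM in the lowest of the Krt12-high ones. Other limbal markers differed between the Krt12-low and Krt12-high clusters in no common direction, with log2 ratios of 1.02 and 0.97 for Atf3, 0.05 and -0.07 for Trp63 and -3.07 and -2.39 for Cxcl14, named after their values were seen. The cells are therefore called by their Krt12 level and not as limbal. Becn1 itself had 44.4 and 44.9 CPM in the epithelium, which does not check the genotype, because the missing stretch of the gene is not known.

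Gpha2 was concentrated at the Krt12-low end of the basal layer, and 2 kinds of non-epithelial cells had it as well. In Krt12-low basal cells it stood at 2101 CPM (2054 to 2150) and 1859.8 CPM (1819 to 1902). Krt12-high basal cells had 125 CPM (119.8 to 130.4) and 119.9 CPM (115 to 125), wing cells 45.5 and 38.7 CPM, and surface cells 19.3 and 19.2 CPM. The level thus stepped down from the Krt12-low base to the surface in both libraries, by a log2 ratio of 4.07 (4.0 to 4.14) and 3.95 (3.89 to 4.02) at the first step, or 16.8-fold and 15.5-fold. With finer clusters, at Leiden resolution 2.0, the wild-type ratio was 3.17, and with no doublets removed it was 3.36. A UMI of Gpha2 was found in 98.6% and 98.3% of Krt12-low basal cells and in 51.2% and 42.4% of Krt12-high ones, at median depths of 14189.5 and 10419 against 17663.5 and 11914 UMIs. With every cell thinned to 5000 UMIs these shares were 95.7% and 93.5% against 25.7% and 25.5%. Surface cells gave the low reference, with 8.42% and 7.98% after thinning and 32.6% and 28.2% before, at median depths of 27358 and 19381 UMIs.

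**Figure D1:**
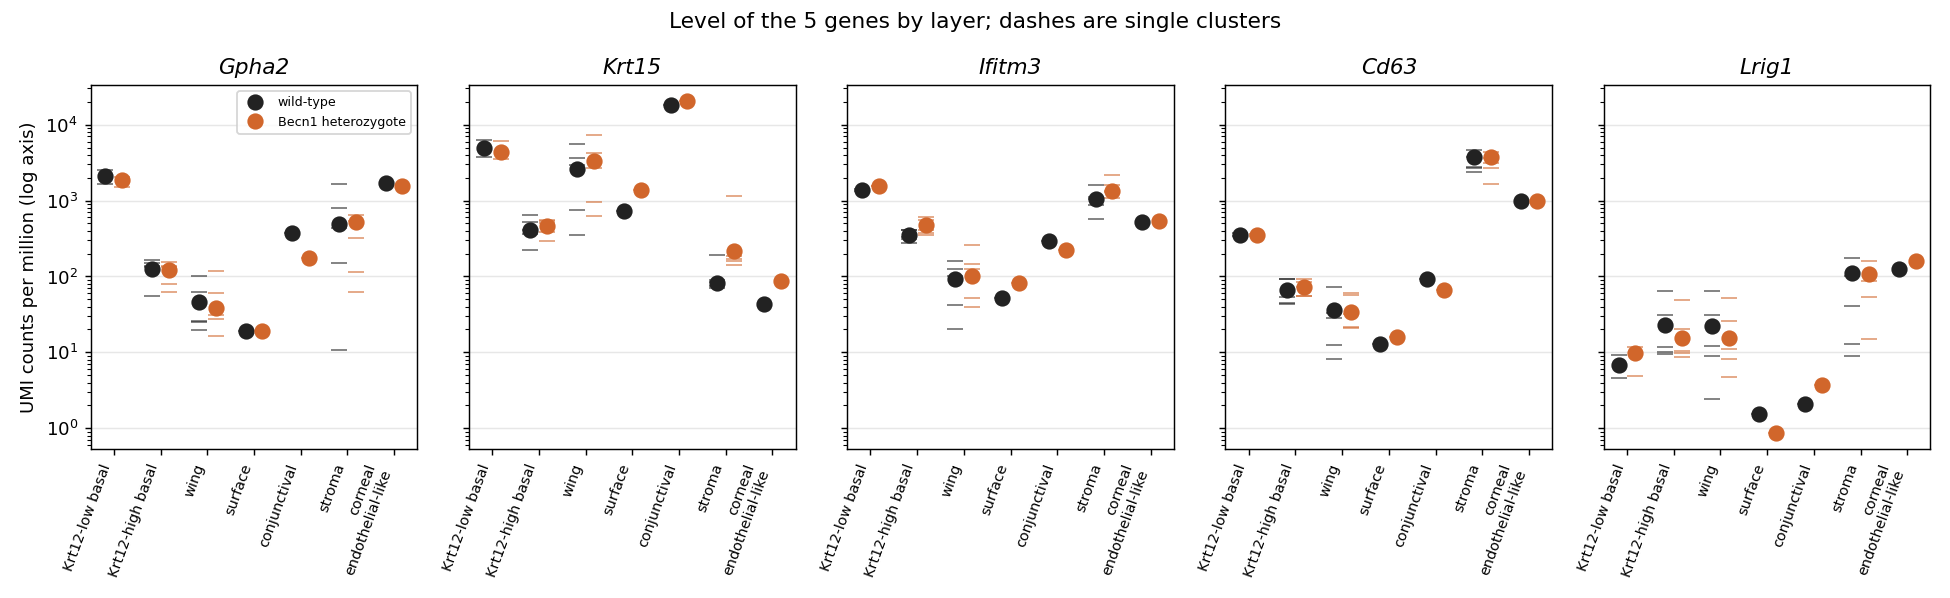
Level of each of the 5 genes in CPM (log axis) by epithelial layer, in stroma and in corneal endothelial-like cells. Dots are the 2 libraries (black wild-type, orange heterozygote) and dashes are single clusters. Among the epithelial layers Gpha2, Ifitm3 and Cd63 peak in Krt12-low basal cells and Krt15 in conjunctival cells. Cd63 and Lrig1 are higher in stroma than in any epithelial layer.

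Single basal cells were also placed by their own Krt12 level in place of their cluster. Gpha2 was then highest from 2000 to 5000 CPM of Krt12 in both libraries, with a smaller margin in the heterozygote. Wild-type cells with under 2000 CPM of Krt12 had 2021 CPM of Gpha2, those from 2000 to 5000 had 3033 CPM, those from 5000 to 10000 had 883 CPM, those from 10000 to 20000 had 137 CPM and those above had 54.3 CPM. In the heterozygote library the same bins had 2081, 2229, 714, 149 and 44.5 CPM, and the intervals of the lowest bin (2009 to 2154) and the next (2149 to 2311) overlapped. Krt15 in contrast was highest in the cells with least Krt12, at 6625 and 6123 CPM, and went down over the bins to 195 and 266 CPM.

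**Figure D2:**
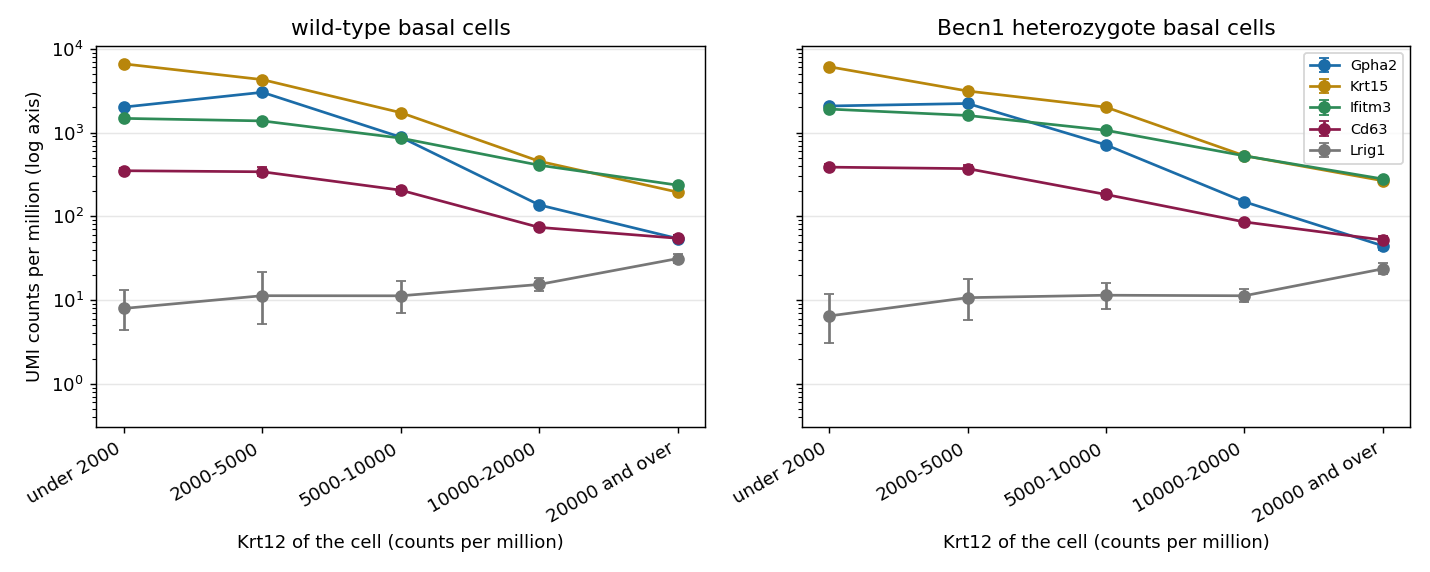
Level of the 5 genes (CPM, log axis) in basal cells grouped by their own Krt12 level, 1 panel per library, with 95% Poisson intervals. Gpha2 is highest in the bin of 2000 to 5000 CPM of Krt12 in both libraries (3033 and 2229 CPM). In the heterozygote the interval of that bin overlaps that of the lowest one (2081 CPM). Krt15 goes down from the lowest Krt12 bin on, and Lrig1 is highest in the last bin, at 31.3 and 23.6 CPM.

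Stroma had 498 CPM of Gpha2 (481 to 515) and 519 CPM (506 to 532), above every epithelial layer except the Krt12-low base. Within the stroma it was uneven. Clusters with at least 2000 CPM of Kera, which encodes the keratocyte proteoglycan keratocan, held 385 and 935 cells. Among these 55.1% and 54.5% had no Gpha2 UMI after thinning, while 24.4% and 24.6% had at least 3 and, chosen by that count, averaged 2233 and 2170 CPM. The 25% of these cells with most Gpha2 held 91.5% and 90.9% of its UMIs, against 59.0% and 62.0% in Krt12-low basal cells. At least 10 thinned UMIs were found in 8.57% and 8.98% of them, against 1.41% and 1.09% of Krt12-high basal cells.

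Krt14, the basal keratin of the epithelium, differed in opposite directions in the libraries between Kera-high cells with and without Gpha2. The cells with at least 3 Gpha2 UMIs had 96.8 and 208 CPM of Krt14, and those with none had 165 and 179 CPM. Kera stood at 5093 against 5040 CPM and at 4416 against 4258 CPM, so both sets had the keratocyte gene alike. Per UMI of Krt14, Gpha2 gave 2.81 and 2.05 UMIs in stroma, 0.247 and 0.227 in Krt12-low basal cells and 0.135 and 0.0955 in surface cells. In stromal cells with no UMI of Krt14, Krt15 or Krt5, 15 and 21 cells, Gpha2 was at 673 and 278 CPM. These cells still had 898 and 823 CPM of Krt12, and the part of epithelial RNA in their Gpha2 was not tested. In both libraries 5 of 4252 features differed at least 2-fold between Kera-high cells with and without Gpha2, named here after their values were seen. Cxcl2, a neutrophil chemokine, and Scd1, a fatty acid desaturase, were higher by log2 ratios of 1.55 and 1.16 for Cxcl2 and 1.09 and 1.22 for Scd1. Pcolce2 was lower at -2.57 and -1.32, Spp1 at -1.18 and -2.04, and Lect1 at -2.27 and -1.05.

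**Figure D3:**
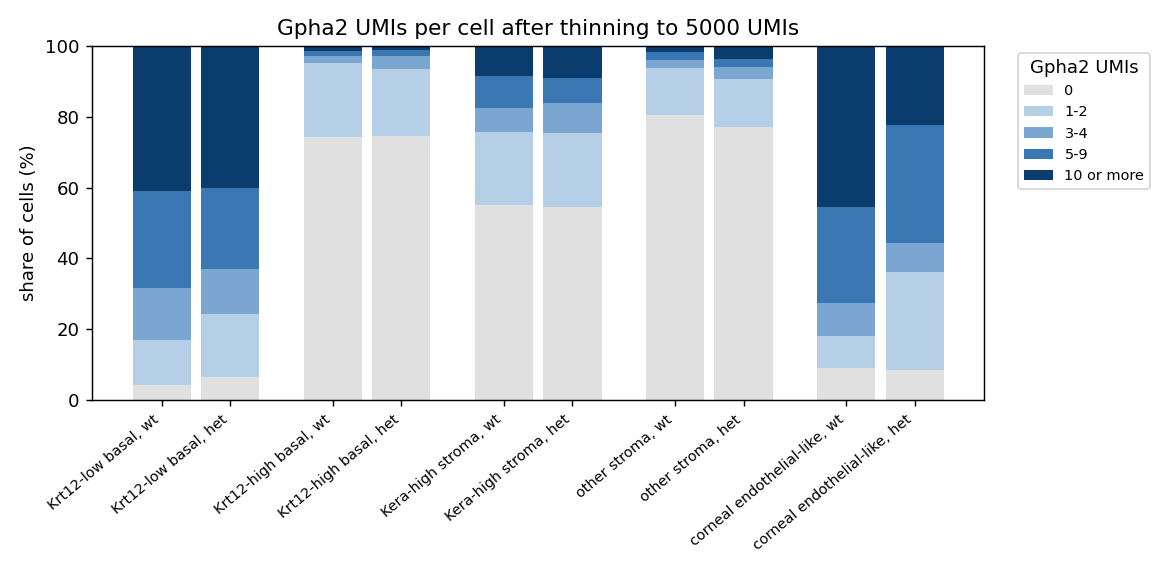
Share of cells (%) by number of Gpha2 UMIs after thinning each cell to 5000 UMIs, stacked for Krt12-low and Krt12-high basal cells, Kera-high and other stroma and corneal endothelial-like cells, in the wild-type (wt) and heterozygote (het) library. Kera-high stroma holds many cells with none (55.1% and 54.5%) beside a set with 10 or more (8.57% and 8.98%), the latter more often than Krt12-high basal cells (1.41% and 1.09%).

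Corneal endothelial-like cells, with 2059 CPM of Slc4a11 and 2071 CPM of Col8a2 over both libraries, also had Gpha2. Its level was 1703 CPM in 11 wild-type cells and 1544 CPM in 36 heterozygote cells. It was found in 90.9% and 91.7% of them after thinning. The beta subunit of the hormone was sparse. Gphb5 gave 35 and 76 UMIs in all cells, of which 57.1% and 97.4% came from Krt12-low basal cells, at 5.70 and 17.7 CPM. Conjunctival cells held 14 and 1 of these UMIs, at 5.83 and 0.282 CPM, so that in the wild-type library they had as much as the Krt12-low base. Cluster 16, the one with less Krt12, held 18 and 69 of them, in 7.87% and 20.0% of its cells. Stroma had no Gphb5 UMI in either library, which allows up to 0.439 and 0.257 CPM. The receptor Tshr gave 1 and 0 UMIs in epithelium and 2 and 3 in stroma.

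Krt15 had its highest level outside the corneal lineage. Conjunctival cells had 18192 and 20222 CPM, Krt12-low basal cells 4999 and 4327 CPM, and Krt12-high basal cells 412 and 456 CPM. Wing cells, which lie above the basal layer, had 2569 and 3306 CPM, and surface cells 727 and 1394 CPM. The order from base to surface was therefore not a steady fall: Krt15 was low in Krt12-high basal cells and higher again in the wing layer. Clusters placed as wing differed, from 347 and 634 CPM in cluster 15, whose place is uncertain, to 5524 and 7400 CPM in cluster 11. Among wing cells grouped by Krt13, a keratin of conjunctival and non-cornified epithelia, Krt15 was at 970 and 1727 CPM below 200 CPM of Krt13 and at 8467 and 7783 CPM at 3000 CPM and above. Within the Krt12-low base, cluster 16 had 6271 and 6178 CPM of Krt15 and cluster 10 had 3749 and 3543 CPM. Of all Krt15 UMIs, 42.3% and 42.1% came from wing cells and 14.3% and 9.64% from Krt12-low basal cells.

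Ifitm3 was the other gene with more in the Krt12-low base than in any other epithelial layer and in stroma, at 1378 and 1548 CPM. Krt12-high basal cells had 347 and 479 CPM, wing cells 93.0 and 103 CPM, and surface cells 51.6 and 82.3 CPM. The fall from base to surface was seen in both libraries, and each of these 4 layers was higher in the heterozygote. After thinning, 99.0% and 99.4% of Krt12-low basal cells had a UMI, against 66.4% and 73.7% of Krt12-high basal and 13.7% and 19.7% of surface cells. Stroma had 1042 and 1343 CPM, and vessel-like cells, 13 and 35 in number, had 3893 and 5211 CPM.

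Cd63 was above all a gene of the stroma. It stood at 3801 and 3745 CPM in stroma, where it was found in 100% and 99.7% of thinned cells, and at 73.2 and 72.5 CPM in the whole epithelium. Within the epithelium its order was that of Gpha2 at a lower contrast: Krt12-low basal cells had 356 CPM in both libraries, Krt12-high basal cells 65.5 and 73.0 CPM, wing cells 36.0 and 34.2 CPM and surface cells 12.7 and 15.9 CPM. The stromal gene Dcn was at 62.7 and 103 CPM in Krt12-low basal cells, 158 and 134 CPM in wing cells and 54.7 and 93.8 CPM in surface cells. The part of stromal RNA in the low Cd63 values was not tested. Stroma gave 86.2% and 88.7% of all Cd63 UMIs. Stromal clusters ranged up to 4573 and 4389 CPM in the Kera-high cluster 1. Stromal cells with at least 5000 CPM of Kera had 4517 and 4487 CPM, those below 500 CPM had 2623 and 2721 CPM.

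Lrig1 went the other way in the basal layer. It was at 6.84 CPM (4.38 to 10.2) and 9.78 CPM (7.02 to 13.3) in Krt12-low basal cells, against 22.8 and 15.7 CPM in Krt12-high basal cells and 22.6 and 15.4 CPM in wing cells. Surface cells had 1.54 and 0.871 CPM, from 4 UMIs in each library. Across the Krt12 bins Lrig1 was highest in the basal cells with most Krt12, at 31.3 and 23.6 CPM, against 7.95 and 6.46 CPM in those with least. The thinned share of Krt12-low basal cells with a UMI was 1.92% and 4.83% and the unthinned one 8.65% and 10.2%, near the level of single UMIs, so it was not read as a difference. Stroma had 111 and 108 CPM, above every epithelial layer, and the Kera-high cluster 1 had 176 and 158 CPM. The epithelial clusters with most Lrig1 were cluster 15, at 64.4 and 52.7 CPM, and the cycling basal cluster 17, at 64.1 and 49.3 CPM. Cluster 15 counts as wing only by the Krt14 threshold, and its layer is uncertain.

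Set side by side, 4 of the 5 genes were at least 2-fold higher in Krt12-low than in Krt12-high basal cells in both libraries, against 3.64% of the 4043 features with a mean of at least 20 CPM, while 2.42% were lower by as much. The log2 ratios were 3.60 (3.56 to 3.64) and 3.24 (3.21 to 3.28) for Krt15, 2.44 (2.32 to 2.56) and 2.28 (2.18 to 2.39) for Cd63, and 1.99 (1.93 to 2.04) and 1.69 (1.65 to 1.74) for Ifitm3. The median over all features was -0.01 in both libraries, and 95% of them were below 1.02 and 0.86. Lrig1, at -1.71 (-2.39 to -1.14) and -0.66 (-1.19 to -0.21), was the exception, with a mean under 20 CPM. The clustering moved some of these by more than 1.5-fold: in the wild-type library Krt15 had 1.99 at resolution 0.5, and in the heterozygote 2.12 with layers assigned cell by cell. Wild-type Lrig1 ranged from -2.39 at resolution 0.5 to -1.01 with layers assigned cell by cell. The clusters were built without the 5 genes but with others that vary with them, so the ratios are a description and not independent of the clustering. The 5 genes were also chosen with earlier results of these data known, so their count beside the share of all features is no test. Only 2 of the 5, Gpha2 and Ifitm3, had their highest level among the 6 layers in Krt12-low basal cells.

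Against the whole epithelium, stroma was at least 2-fold higher in both libraries for 4 of the 5 genes, where 23.0% of 4544 features were, and lower for Krt15, where 16.9% were. The log2 ratios were 1.01 and 1.31 for Gpha2, 1.82 and 1.94 for Ifitm3, 5.70 and 5.69 for Cd63 and 2.53 and 3.04 for Lrig1, and -5.02 and -3.91 for Krt15. Krt12-high basal cells were in turn at least 2-fold above wing cells for 2 of the 5, where 5.75% of 4105 features were, with 1.46 and 1.63 for Gpha2 and 1.90 and 2.22 for Ifitm3. Krt15 was the 1 of 5 that was lower by that much, where 8.62% were, at -2.64 and -2.86. Conjunctival cells were at least 2-fold above the Krt12-low base for 1 of the 5, Krt15 at 1.86 and 2.22, where 12.0% of 4008 features were. They were lower by as much for Gpha2 at -2.5 and -3.40, Ifitm3 at -2.22 and -2.80 and Cd63 at -1.93 and -2.41, where 8.76% were. Lrig1, from few UMIs, had -1.61 and -1.38. Its mean was under 20 CPM, so it is not among these features.

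Gpha2, Krt15, Ifitm3 and Cd63 were found in the same Krt12-low basal cell about as often as their separate shares give. After thinning, 154 of 208 wild-type cells (74.0%, 67.5 to 79.9) and 253 of 352 heterozygote cells (71.9%, 66.9 to 76.5) had all 4, beside a product of the 4 separate shares of 75.0% and 71.6%. In the order named, the separate shares were 95.7%, 98.6%, 99.0% and 80.3% in the wild-type library. In the heterozygote they were 93.5%, 98.6%, 99.4% and 78.1%. Shares this high leave the joint share little room to differ from the product, so nothing on independence is read from it. In Krt12-high basal cells 6.81% and 7.58% did, beside a product of 1.94% and 3.06%. Within the Krt12-low base the levels were only loosely linked, with r across cells of 0.24 and 0.40 for Gpha2 with Ifitm3 and of -0.18 and -0.03 for Gpha2 with Krt15, where cells share a library and sparse counts.

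The families of the 5 genes did not follow them as a whole. Of the other keratins measured, 4 of 10 were at least 2-fold higher in Krt12-low basal cells in both libraries and 1 was lower, with a median log2 ratio of 0.78 and 0.67. Krt4, a conjunctival keratin also used to place the conjunctival cells, had 5.16 and 3.93, Krt19, a keratin of simple and conjunctival epithelia, had 4.81 and 3.37, and Krt17, a stress-induced keratin, had 4.44 and 3.69. Krt12, which defined the split, was the lower one. Conjunctival markers summed to 822 and 629 CPM in Krt12-low basal cells and 48.7 and 61.6 CPM in Krt12-high ones, and the part of conjunctival cells or transcripts in these ratios was not tested. In the Ifitm family 1 of 2 was higher, Ifitm1 at 2.24 and 2.01, and its level was highest in surface cells, at 11887 and 12409 CPM, unlike Ifitm3. Of 10 other genes measured on a list of tetraspanins and Cd63 partners, which include the Cd63 ligand Timp1 and the lysosomal Lamp1, 1 was higher, the tetraspanin Tspan3 at 1.24 and 1.47, and the median was -0.08 and 0.04. None of 7 other genes of the Lrig and ErbB list was higher, and 1 was lower, the ligand Epgn at -2.18 and -1.36. Among 10 further genes used as limbal or stem cell markers none was higher by that much in both libraries and 1 was lower, the chemokine Cxcl14, and Mt2, the metallothionein with the highest level, had -0.24 and -0.26. Of 6 proliferation genes 4 were lower, Ube2c among them at -1.60 and -2.39. The Krt12-high side holds the cycling clusters 7 and 17, with 69.6 and 121 CPM of Mki67, another of the 4, over both libraries. Its clusters 2, 3 and 6 had 4.55, 2.39 and 2.77 CPM, and the Krt12-low clusters 10 and 16 had 2.97 and 28.5 CPM. The lower ratios therefore do not hold against each Krt12-high cluster.

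The genes most like each member were sought among 7457 features over the 18 clusters with at least 20 cells in each library, as Pearson's r of log2(CPM + 10), 1 value per library. Clusters share libraries and depth, and the values are a description. The 5 most like Gpha2 were Apoe, a lipid carrier, at 0.90 and 0.95, the potassium channel gene Kcnk1 at 0.90 and 0.90, Tmem176a, Tmem176b and the cytokine gene Lif. Apoe did not follow Gpha2 within Kera-high stroma, where cells with at least 3 Gpha2 UMIs had 1310 and 2299 CPM and those with none 2766 and 4206 CPM. For Krt15 they were Tgm1, the transglutaminase of the cornified envelope, at 0.94 and 0.95, Ttc9, Adam28, Krt4 and St14. Zfos1, at 0.94 and 0.95, led those of Ifitm3, Fkbp1a, at 0.98 and 0.98, those of Cd63, and Zmynd8, at 0.94 and 0.92, those of Lrig1. Between members r was 0.84 and 0.83 for Ifitm3 with Cd63, 0.66 and 0.82 for Gpha2 with Ifitm3, and 0.14 and -0.09 for Gpha2 with Krt15. Krt15 with Lrig1 gave -0.59 and -0.68.

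Between the genotypes, none of the 5 genes differed by 1.5-fold or more in the whole epithelium, where 1.23% of features did. Levels there were 248 and 209.8 CPM for Gpha2, 2652 and 3263 CPM for Krt15, 295 and 351 CPM for Ifitm3 and 19.2 and 13.2 CPM for Lrig1. As log2 of heterozygote over wild-type these were -0.24 (-0.28 to -0.20), 0.30 (0.29 to 0.31), 0.25 (0.22 to 0.28) and -0.54 (-0.69 to -0.40), and Cd63 had -0.01 (-0.08 to 0.05). All but that of Cd63 exceeded counting error, and the variation between animals is not known. Conjunctival cells left by the dissection, 68 and 170 in number, gave 35.6% and 38.1% of all Krt15 UMIs. Their part in the Krt15 ratio was not tested.

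In the stroma 1 of the 5 genes, Krt15, differed by 1.5-fold or more, where 2.32% of features did. It was at 81.7 CPM in the wild-type library and at 217 CPM in that of the heterozygote, a log2 ratio of 1.41 (1.28 to 1.54). Other epithelial transcripts were also present there: Krt12 at 898 and 1360 CPM and Krt14 at 177 and 253 CPM, and vessel-like cells had 49.1 and 306 CPM of Krt15. Cluster 18, the stromal cluster with most Krt14, had 74.4 and 1153 CPM of Krt15, and without it the ratio was 1.01. The part of epithelial RNA or cells in this difference was not tested. With clusters weighted equally Gpha2 also passed 1.5-fold, at -0.84, where cluster 22 with 8 and 5 cells weighs as much as the others. Ifitm3 had a stromal ratio of 0.37 (0.33 to 0.41), and Gpha2, Cd63 and Lrig1 had 0.06, -0.02 and -0.03.

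By layer, the differences of 1.5-fold or more that exceeded counting error were in surface and conjunctival cells, which are few. In surface cells, where 6.86% of features differed that much, Krt15 had 0.94 (0.86 to 1.01) and Ifitm3 0.67 (0.38 to 0.97). In conjunctival cells, where 9.83% did, Gpha2 had 372 and 176 CPM, or -1.08 (-1.23 to -0.93). Krt12, the corneal keratin, was at 2149 and 5131 CPM in the same cells, and the part of corneal cells or RNA in the Gpha2 difference was not tested. In Krt12-low basal cells, with a background of 2.62%, the ratios were -0.18 for Gpha2, -0.21 for Krt15, 0.17 for Ifitm3, -0.00 for Cd63 and 0.50 (-0.24 to 1.31) for Lrig1. These cells were 89 and 90 of cluster 16, the one with more Krt15, and 119 and 262 of cluster 10. The part of this mix in the Krt15 ratio was not tested. Wing cells, with a background of 1.97%, ranged from -0.55 for Lrig1 to 0.36 for Krt15. Among Krt12-high basal cells, with a background of 0.984%, they lay between -0.54 for Lrig1 and 0.46 for Ifitm3.

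**Figure D4:**
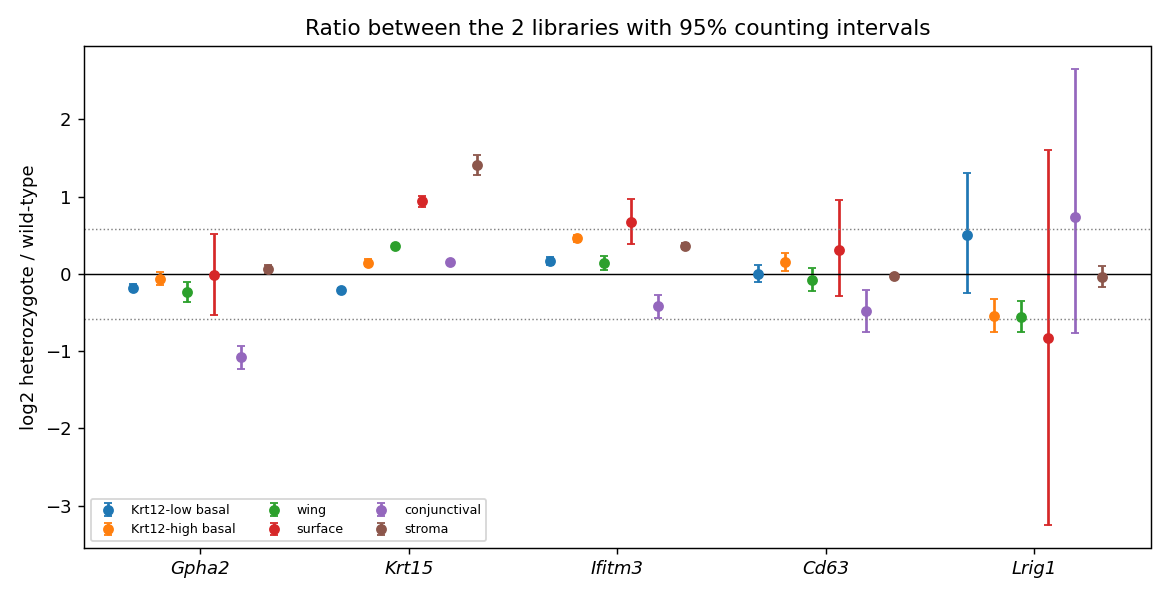
Log2 ratio of heterozygote over wild-type CPM for the 5 genes in each layer and in stroma, with 95% counting intervals and dotted lines at 1.5-fold. Krt15 in stroma (1.41) and in surface cells (0.94), Ifitm3 in surface cells (0.67) and Gpha2 in conjunctival cells (-1.08) lie outside the lines. Lrig1 also does in surface (-0.82) and conjunctival cells (0.73), from few UMIs and with intervals that include 0. In Krt12-low and Krt12-high basal cells the ratios of all 5 genes lie within the lines, but the Lrig1 intervals there extend past them.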

How the data were processed

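Per the labels, single cells of 1 wild-type and 1 Becn1 heterozygote cornea with limbus were profiled with the 10x Genomics protocol. The authors deposited UMI counts per feature and barcode, made with Cell Ranger 2.1.1 on mm10 per the submitters' processing notes. Annotation release and strand setting: not given in the sources used here. Both libraries, in order wild-type and heterozygote, held 2513 and 5155 barcodes with 54913980 and 74363359 UMIs, and each barcode had at least 8089 and 5430.

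All barcodes passed limits of 500 genes and 20% mitochondrial UMIs. Scrublet in scanpy 1.11.5 scored doublets, of which 51 (2.03%) and 213 (4.13%) were removed at 0.8% per 1000 barcodes. Clusters came from 2000 variable genes without members, listed, mitochondrial and ribosomal genes, 30 components, 15 neighbours and Leiden resolution 1.0 (leidenalg 0.10.2, scikit-learn 1.9.0), with no integration. Layers followed cluster CPM: stroma Dcn of 5000 or more, epithelium a sum of 5 keratins of 5000 or more, surface Lce3a of 1000 or more, conjunctival Krt4 plus Krt13 of 3000 or more and above Krt12, basal Krt14 of 2000 or more, wing the rest. Cluster 21, led by the myeloid genes Cd74 and Lyz2, was kept out of the wing layer after its genes were seen (9 and 32 cells).

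Counts were summed by library and layer and scaled to CPM. Ratios have 0.5 added to each count. Intervals are Poisson, conditional Clopper-Pearson or binomial (scipy 1.17.1). Backgrounds use features with a mean of at least 20 CPM. Thinning took 5000 UMIs of every cell, and no cell was shallower. TMM factors (edgeR 4.0.16) served as an alternative only, and no expression test was run because each genotype is 1 library. The scripts (Python 3.11.15, numpy 2.4.6, matplotlib 3.10.9) were tested on simulated data. Named are the 5 members, the 5 genes most like each, and in each list the 1 or 2 of highest level or largest ratio. The members and lists were chosen with earlier results of these data known.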

Additional observations from a re-analysis of the deposited data

Results flagged for a closer look

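Between the genotypes, Gpha2 had a log2 ratio of heterozygote over wild-type of -0.24 in the whole epithelium and of 0.06 in the stroma, opposite signs whose intervals do not overlap. The stromal interval (7.6e-07 to 0.12) starts next to 0, and the stromal sign changed in 2 of 10 alternative settings, so no stromal direction is read from it. Krt15 had -0.21 in Krt12-low basal cells and 0.15 in Krt12-high basal cells, again with opposite signs. The Krt12-low base held 89 and 90 cells of cluster 16, which had more Krt15, and 119 and 262 of cluster 10. With 1 library per genotype, neither difference was tested, nor was the part of this mix in the Krt15 ratio.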

How the results depend on the processing

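Each of the 4 counts was recomputed under 9 alternatives, 1 of them added after seeing the data, and the stromal genotype count under a further one, also added then, that left out the stromal cluster with most Krt14. The count of genes that differed by 1.5-fold or more between genotypes in stroma became 2 with clusters weighted equally, when Gpha2 joined Krt15 at -0.84. In that setting cluster 22, with 8 wild-type and 5 heterozygote cells and 1639.8 and 63.1 CPM of Gpha2, weighs as much as any other. The other 3 counts held under all 9. The log2 ratio of Krt12-low over Krt12-high basal cells ranged from 3.17 to 4.07 and 3.46 to 4.09 (wild-type, then heterozygote) for Gpha2, and from 1.99 to 3.60 and 2.12 to 3.42 for Krt15. Of the 30 ratios recomputed, 4 changed sign in some setting, all of them genotype ratios near 0: Gpha2 in stroma (-0.84 to 0.12), Cd63 in epithelium (-0.08 to 0.36) and in stroma (-0.07 to 0.02) and Lrig1 in stroma (-0.13 to 0.01). TMM factors moved all epithelial genotype ratios by 0.10. Krt15 in stroma stayed between 1.01 and 1.82. The cause of these shifts was not tested. Depth limits Lrig1 in Krt12-low basal cells. The number of cells limits all values of surface, conjunctival, endothelial-like and vessel-like cells, which are few. No paired analysis was possible because each genotype is 1 library and no replicate is shared.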
